A study of Rattus norvegicus with 6 samples.

Results

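The extracellular matrix and fibroblast genes of rat renal cortex were taken as 37 named genes, and 31 of them had at least 1 probe on the array that carried a RefSeq transcript of the gene. The 31 came from 15645 gene symbols with such a probe. No RefSeq probe was matched for Col4a2, Col5a2, Col6a1, Col6a3, Lox or Nid1, which are not analysed here. Of the 31, 29 were tested. Postn and Lum were too dim, because neither exceeded background clearly on all 3 arrays of any group. The 37 genes were selected on their role with the processed signals of the same 6 arrays, corn oil against chlorothalonil, already known. The differences between the groups below are therefore a description of the members and no independent test of them.

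Gene expression was measured on Agilent 1-colour microarrays with Cy3-labelled cRNA, 1 array per animal. All animals were male Sprague-Dawley rats, 5 weeks old when obtained, on a basal diet. The control group was 3 rats given corn oil for 4 weeks, and the treated group was 3 rats given the fungicide chlorothalonil for the same time at a daily dose of 500 mg/kg. The samples are biological replicates by the design text, and the comparison sets the cortex of dosed rats against that of the controls. One label disagrees with the rest: the source name of chlorothalonil replicate 3 gives ethylenediamine dihydrochloride, whereas its title, treatment and dose give chlorothalonil. The corn oil arrays lay on 1 slide and the chlorothalonil arrays on a second one with another scan day, so slide and treatment cannot be told apart in any difference below.

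Between 38234 and 41711 of 61537 probes per array were well above background. Pearson's r between arrays, across 29115 features, which are not independent replicates, was 0.988 to 0.992 within corn oil, 0.994 to 0.995 within chlorothalonil and 0.986 to 0.990 between the groups. All 10 listed markers of the proximal tubule, the main epithelium of the cortex, were well above background on all 6 arrays. Of the listed capsule, fat and adrenal markers, Adipoq and Cyp17a1 were above background on all 6 arrays, and Lep, Cyp11b2 and Star on none. The summed level of Adipoq and Cyp17a1 was 0.708 to 0.990 with corn oil and 0.742 to 0.947 with chlorothalonil, on the linear scale relative to the 75th percentile, and the part of such tissue in the results was not tested. A level is given as log2 of the spot signal minus the array's 75th percentile over all probes other than controls, so 0 is the brightness of that percentile and 1 unit is a doubling. A difference is chlorothalonil minus corn oil on that scale, with the standard error (SE) of a limma fit over all 29115 features. A feature is called changed at a Benjamini-Hochberg adjusted p of 0.05 in that fit. Taken singly, Adipoq differed by 0.08 ± 0.22 (SE) and Cyp17a1 by −0.65 ± 0.25, so their summed level does not show the lower mean of Cyp17a1 with chlorothalonil. The groups of both genes overlapped and neither gene was called. Levels of different genes come from different probes and are not compared with each other.

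The extracellular matrix is the scaffold of secreted proteins around cells. Fibroblasts and other mesenchymal cells of the kidney make fibrillar collagens, fibronectin and proteoglycans between the tubules. Fibrillins form microfibrils, to which the latent TGF-beta binding proteins attach. Several of these hold the growth factor TGF-beta in an inactive complex, and active TGF-beta is a known inducer of collagens and of the myofibroblast state, in which Acta2 and Tagln are made. In the kidney this programme is known from interstitial fibrosis.

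Both called genes, Ltbp2 and Cilp, have a promoter window in the RefSeq table of build GRCr8. The 250 bases before each start site are shown because these were the members past the threshold for a call. They are written 5′ to 3′ in the direction of the gene, with capitals for matches to any of 5 motifs searched on both strands. Ltbp2 lies on the minus strand, with its window at chr6:110257299-110257548, and Cilp on the plus strand, with its window at chr8:74672198-74672447.
Ltbp2: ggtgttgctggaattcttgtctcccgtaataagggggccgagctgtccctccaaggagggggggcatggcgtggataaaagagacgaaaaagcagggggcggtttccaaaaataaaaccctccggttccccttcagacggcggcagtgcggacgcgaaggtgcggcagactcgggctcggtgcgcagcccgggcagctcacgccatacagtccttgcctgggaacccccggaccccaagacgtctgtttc
Cilp: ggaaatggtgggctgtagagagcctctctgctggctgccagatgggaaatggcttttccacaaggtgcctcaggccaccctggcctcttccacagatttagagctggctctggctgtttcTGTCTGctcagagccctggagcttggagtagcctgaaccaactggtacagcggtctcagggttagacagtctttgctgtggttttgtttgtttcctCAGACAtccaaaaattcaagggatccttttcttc
The motifs were the antioxidant response element core TGACNNNGC, known as the site of NRF2, the AP-1 site TGANTCA, the CArG box of serum response factor, the CAGA box CAGACA, known from genes that SMAD proteins bind, and the TATA box TATAAA. The Ltbp2 window held 0 matches. The Cilp window held 2 matches of CAGACA, 1 on each strand and neither overlapping another motif. These began at positions −130 and −34 relative to the start site.

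Over all 33469 windows of that length, 10.1% held TGACNNNGC, 6.34% TGANTCA, 1.5% the CArG box, 17.2% CAGACA and 12.9% TATAAA. Windows were found for 26 of the 37 genes, and the table matched none for Col1a1, Col3a1, Fn1, Mgp, Dcn, Bgn, Lox, Mmp2, Mmp14, Tagln or Pdgfrb. Of the 26, 6 held CAGACA, namely Acta2, Cilp, Col5a2, Fbn1, Sparc and Tnc. TATAAA was in 4, namely Ccn2, Col1a2, Postn and Tnc. TGANTCA was in Col6a1 and Pdgfra, TGACNNNGC in Ltbp4, and the CArG box in 0. A match is a run of letters and was not shown to be bound.

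With chlorothalonil, 1 of the 29 tested genes was called higher and 1 lower. Ltbp2, a microfibril-associated protein of the latent TGF-beta binding family that does not itself bind TGF-beta, was 5.37-fold higher. Cilp, a secreted matrix protein of cartilage and of fibroblasts, was 5.08-fold lower. The other 27 were not called, among them all tested collagens, all 3 TGF-beta ligands and the myofibroblast genes Acta2 and Tagln. Of all 29115 features, 909 were called, which is 3.12%, with 1.30% higher and 1.82% lower. Among the 11926 features with a gene symbol the share was 2.14%, with 1.44% higher and 0.696% lower. The members' count is given beside these shares and nothing is read from it, since the comparison helped to choose the genes. The median log2 difference was 0.10 over the 29 genes and 0.00 over all features. It was above 0 for 19 of the 29, for 50.8% of all features and for 55.7% of those with a symbol. The 3 arrays of one group lay wholly above those of the other for 6 of the 29 genes, 4 of them higher and 2 lower with chlorothalonil. The same held for 27.7% of all features, with 13.6% higher and 14.0% lower, and for 27.8% of those with a symbol, with 16.3% higher and 11.4% lower. Of the members counted as lower, Tnc was kept only through the corn oil arrays, where it is high. It was well above background on 2 chlorothalonil arrays. In these tissue samples, fewer cells of a type and less RNA per cell cannot be told apart.

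**Figure D1:**
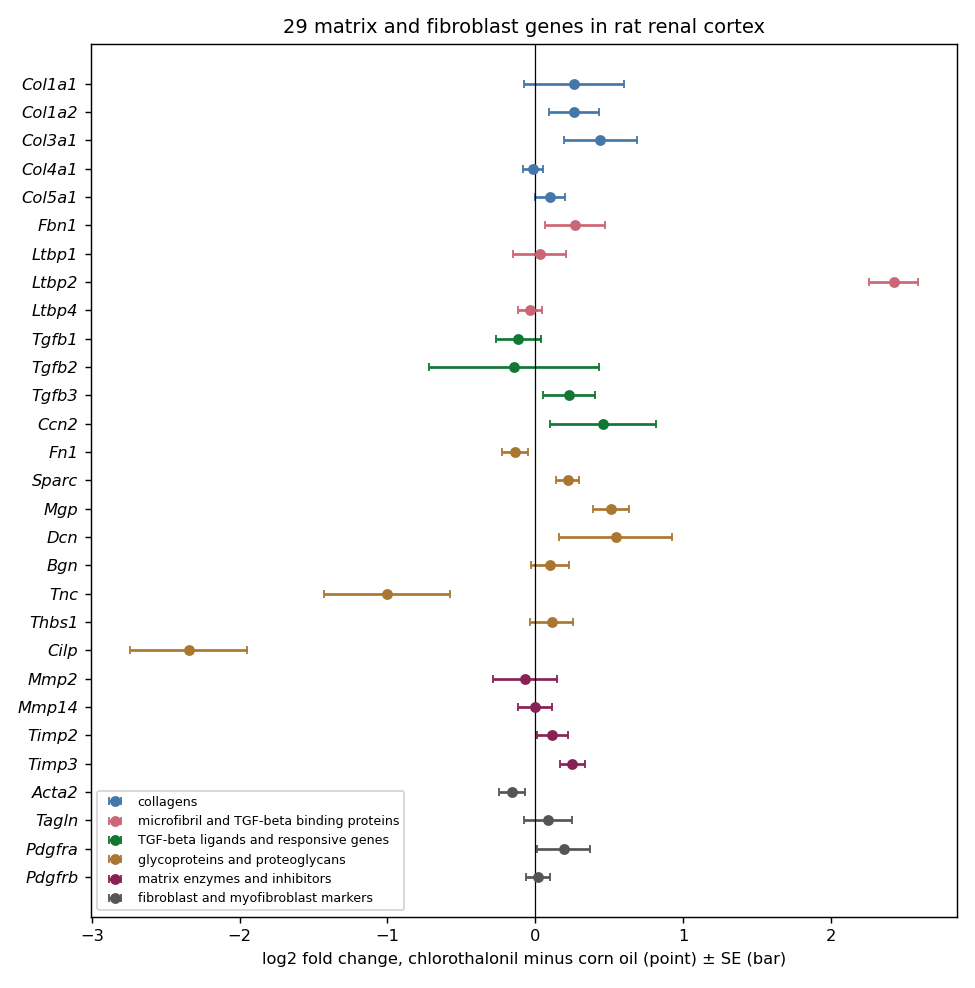
Log2 difference between the groups (x axis, chlorothalonil minus corn oil, point) with its SE (bar) for the 29 tested genes (y axis), coloured by role. Ltbp2 lies at 2.42 and Cilp at −2.35, and every other gene lies between −1.0 and 0.55.

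Among the microfibril and TGF-beta binding proteins, 1 of 4 was called. The level of Ltbp2 with corn oil was −4.30, −3.69 and −3.96, in replicate order as throughout, and with chlorothalonil it was −1.42, −1.59 and −1.65. All chlorothalonil arrays lay above all corn oil arrays, and the gap between the groups was wider than the whole range of either. The group means were −3.98 ± 0.31 (SD, n = 3) and −1.55 ± 0.12, a difference of 2.42 ± 0.17 (SE). Its 3 probes gave the same order of the groups. The second probe differed by 2.22 ± 0.38 and was well above background on 1 corn oil array and on all 3 chlorothalonil arrays. The third was above background on no corn oil array and on all chlorothalonil arrays, so only a bound is given for it. Taking for each corn oil array the higher of the probe's own signal and the dimmest signal that was well above background, it was at least 3.22-fold higher with chlorothalonil, with measured means of −6.52 and −3.65.

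Ltbp2 was dim with corn oil. A spike-in control of similar brightness, which matches no rat RNA, was at −3.35 on the corn oil slide and −3.69 on the other, a difference of −0.34. A slide effect on the Ltbp2 probes themselves was not tested and cannot be told apart from treatment. With any single array left out, the difference of Ltbp2 was 2.27 to 2.57 and it stayed called. Without chlorothalonil replicate 3, whose labels disagree, it was 2.47.

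Ltbp1 and Ltbp4 are family members that do bind the latent TGF-beta complex. Ltbp1 was at 0.88, 0.82 and 1.31 with corn oil and 1.22, 1.11 and 0.78 with chlorothalonil. The groups overlapped fully, with a difference of 0.03 ± 0.18 (SE) and a 95% interval from −0.41 to 0.47. Ltbp4 was at 0.60, 0.54 and 0.42 against 0.51, 0.57 and 0.39, a difference of −0.04 ± 0.08 with an interval from −0.24 to 0.17. These intervals, each from the brightest probe, lie well below the difference measured for Ltbp2, though they were not tested against it. A second probe of Ltbp1 differed by 0.22 ± 0.18 (SE). The sign of Ltbp4 turned to 0.02 when arrays were scaled to their median. Fbn1, fibrillin 1 and the core of the microfibril, was at 0.21, 0.61 and 0.80 with corn oil and 0.50, 0.94 and 0.99 with chlorothalonil. Its groups overlapped, and its 2 probes disagreed in sign, at 0.27 ± 0.20 and −0.15 ± 0.21.

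**Figure D2:**
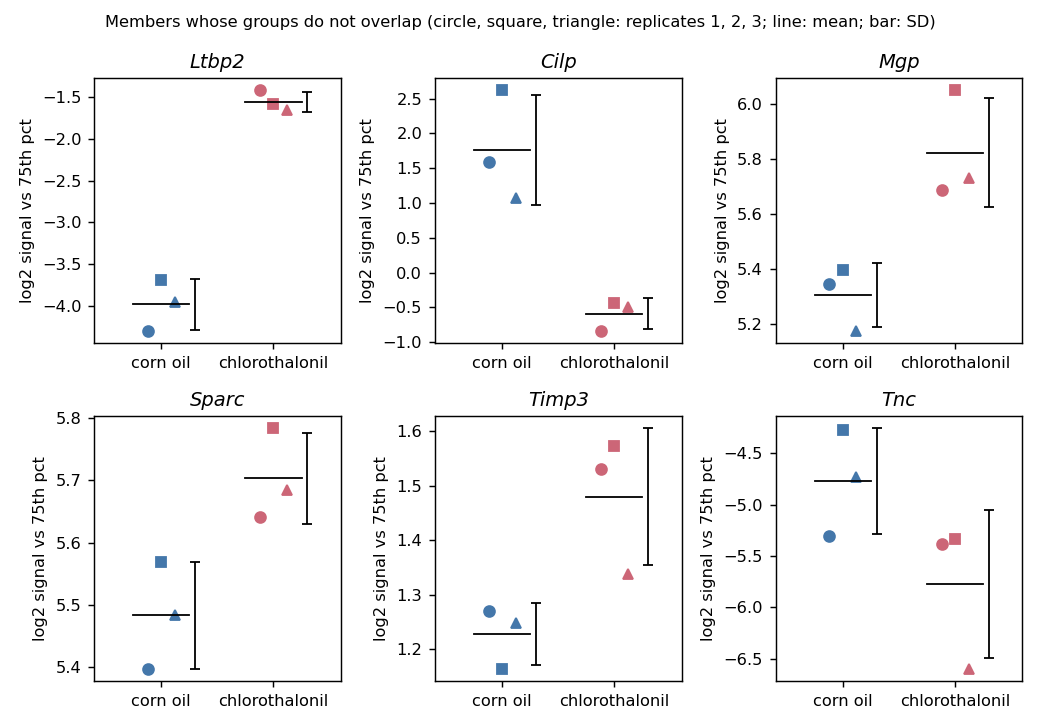
Log2 signal relative to the array's 75th percentile (y axis, a scale of its own in each panel) for the 6 genes whose groups did not overlap, by group (x axis), with 1 point per array, the mean as a line and the SD as a bar. Ltbp2 sits between −4.30 and −3.69 with corn oil and between −1.65 and −1.42 with chlorothalonil, whereas the groups of Tnc are apart by only a small gap.

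The collagens gave no call among 5 tested. Type I and type III collagens form the fibrils of the interstitium. Col1a1, the alpha 1 chain of type I, was at 0.51, 1.34 and 0.91 with corn oil and 1.05, 0.69 and 1.80 with chlorothalonil. The arrays of both groups were mixed, and the difference was 0.26 ± 0.34 (SE) with a 95% interval from −0.57 to 1.09. Col1a2, the alpha 2 chain, was at 3.24, 3.84 and 3.70 with corn oil and 3.76, 3.82 and 3.99 with chlorothalonil, a difference of 0.26 ± 0.17. Col3a1, the type III chain, was at 0.98, 1.87 and 1.61 against 1.67, 2.03 and 2.10, a difference of 0.44 ± 0.25 with an interval from −0.17 to 1.05. In all 3, corn oil replicate 1 was the lowest of the 6 arrays. Without that array the differences were 0.06 for Col1a1, 0.08 for Col1a2 and 0.19 for Col3a1. Without chlorothalonil replicate 3 that of Col1a1 was −0.05.

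Col5a1, a chain of the type V collagen that starts fibrils, was at −0.85, −0.56 and −0.64 with corn oil and −0.68, −0.50 and −0.57 with chlorothalonil. Its difference was 0.10 ± 0.10 (SE). Col4a1, a chain of the type IV network of basement membranes, was at 4.30, 4.28 and 4.31 with corn oil and 4.19, 4.32 and 4.34 with chlorothalonil. Its arrays were the most alike of all the tested collagens, with an SD of 0.02 and 0.08. Its difference was −0.01 ± 0.07, with an interval from −0.18 to 0.15. The 4 probes of Col4a1 gave differences from −0.21 to 0.10, and the 3 of Col1a1 from 0.09 to 0.26.

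The TGF-beta ligands and the responsive gene Ccn2 gave no call among 4. Tgfb1 was at −2.40, −1.87 and −2.02 with corn oil and −2.07, −2.30 and −2.26 with chlorothalonil, a difference of −0.11 ± 0.15 (SE). Tgfb3 was at −3.61, −3.23 and −3.11 against −3.37, −3.0 and −2.90, a difference of 0.23 ± 0.18. Both pairs of groups overlapped.

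Tgfb2 was at −3.30, −1.89 and −3.08 with corn oil and −2.07, −3.91 and −2.72 with chlorothalonil. Its spread within a group, an SD of 0.76 and 0.93, was far larger than its difference of −0.14 ± 0.58 (SE), so these arrays bound a change of Tgfb2 only loosely, from −1.56 to 1.27. Corn oil replicate 1 and chlorothalonil replicate 2 were the lowest array of their group on each of its 3 probes. Ccn2, connective tissue growth factor, was at 2.51, 1.58 and 1.74 with corn oil and 2.95, 2.40 and 1.86 with chlorothalonil. The groups overlapped, with a difference of 0.46 ± 0.36, and corn oil replicate 1 was the highest corn oil array here.

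Among the glycoproteins and proteoglycans, 1 of 8 tested was called. Cilp was at 1.59, 2.62 and 1.07 with corn oil and −0.84, −0.43 and −0.50 with chlorothalonil. Every chlorothalonil array lay below every corn oil array, and the corn oil arrays spread widely, with replicate 2 the highest. The means were 1.76 ± 0.79 (SD, n = 3) and −0.59 ± 0.22, a difference of −2.35 ± 0.39 (SE). The other probe of Cilp gave −2.24, −1.13 and −2.59 with corn oil and −4.03, −3.98 and −4.16 with chlorothalonil, again without overlap and with the same order of the corn oil arrays. Its difference was −2.07 ± 0.37. It was not called when every probe was its own feature, a fit in which 1064 of 39862 probes, 2.67%, were called.

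The call of Cilp, unlike its sign, was lost in most fits with 1 array left out. It was lost without corn oil replicate 1, where the difference was −2.43, and without corn oil replicate 3, where it was −2.69. It was also lost without chlorothalonil replicates 1, 2 and 3, at −2.22, −2.42 and −2.39. Without corn oil replicate 2 it was −1.91 and stayed called. The sign was the same in each of these fits and in every other setting tried. With 1 array left out, the calls over all features fell from 909 to between 112 and 388.

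Mgp, matrix Gla protein, an inhibitor of calcification, was at 5.35, 5.40 and 5.18 with corn oil and 5.69, 6.05 and 5.73 with chlorothalonil. The groups did not overlap, and the difference was 0.52 ± 0.12 (SE), or 1.43-fold, short of a call. Sparc, a collagen-binding matricellular protein, was at 5.40, 5.57 and 5.48 against 5.64, 5.78 and 5.68. The groups were just apart, with a difference of 0.22 ± 0.08, also short of a call.

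Tnc, tenascin C, a matricellular protein known from injured tissue, was at −5.30, −4.28 and −4.73 with corn oil and −5.38, −5.33 and −6.60 with chlorothalonil. The groups were separated by less than 0.1, and the gene was well above background on all corn oil arrays and on 2 chlorothalonil arrays. Its difference was −1.0 ± 0.42 (SE), short of a call, and was −0.33 with normexp background correction. At this brightness the level is close to background, and spike-ins at −6.88 and −3.35 were themselves −0.32 and −0.34 lower on the chlorothalonil slide. The shift was not limited to dim spike-ins. It was −0.22 for one at −0.28 and −0.14 for one at 4.82, while the brightest, at 9.19, differed by 0.05. The part of that shift in the value of Tnc or of any other member was not tested. A second probe of Tnc was too dim to be kept, above background on 1 corn oil array and on no chlorothalonil array. That probe was at −5.87, −4.52 and −6.37 with corn oil and −6.21, −7.89 and −7.75 with chlorothalonil. Its groups overlapped, and no fold is given for it.

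Dcn, decorin, a collagen-binding proteoglycan and a marker of fibroblasts, was at 1.41, 2.63 and 2.74 with corn oil and 2.5, 2.83 and 3.07 with chlorothalonil. Corn oil replicate 1 stood far below the other 5 arrays, and the groups overlapped. The difference was 0.55 ± 0.38 (SE), and 0.12 without that array. Bgn, biglycan, differed by 0.10 ± 0.13, and Thbs1, thrombospondin 1, which can activate latent TGF-beta, by 0.11 ± 0.15. Fn1, fibronectin, was at 1.43, 1.28 and 1.26 against 1.12, 1.31 and 1.12, a difference of −0.14 ± 0.09. The probes of Fn1 disagreed: a second one differed by −0.16 ± 0.12, while the third and dimmest, above background on 2 corn oil arrays, differed by 0.57 ± 0.15 without overlap of the groups.

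The 2 genes left out as too dim both belong here. Postn, periostin, known from activated fibroblasts, was well above background on 1 array only, corn oil replicate 1. Its level was −4.23 there, −7.46 and −7.06 on the other corn oil arrays and −7.93, −7.95 and −7.78 with chlorothalonil. Lum, lumican, was above background on no array, with levels from −8.12 to −6.80. No fold is given for either.

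**Figure D3:**
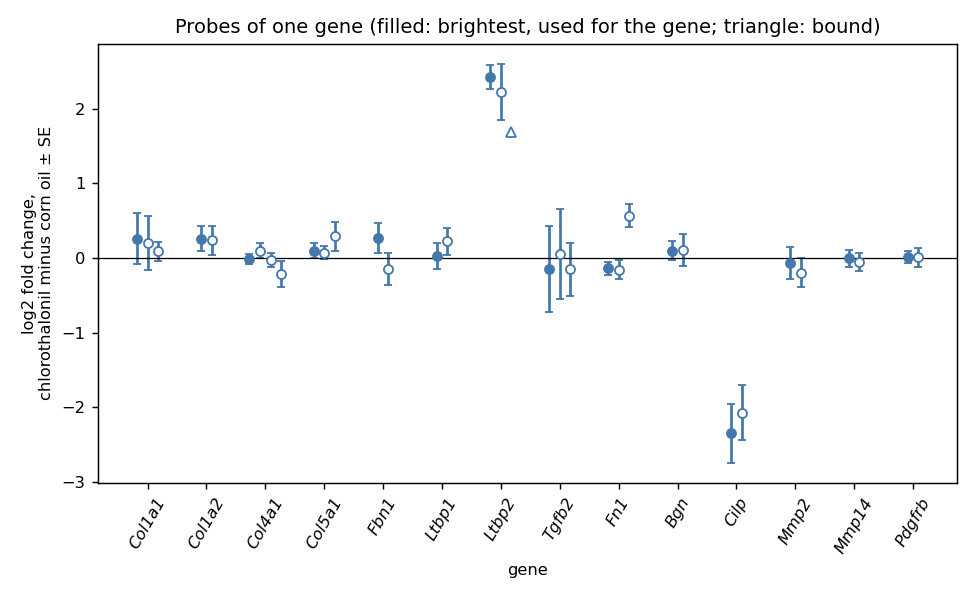
Log2 difference with its SE (y axis) for each kept probe of the 14 genes that had more than 1 (x axis); the filled point is the brightest probe, which stands for the gene. The triangle is the lower bound of 1.69 for the Ltbp2 probe that was above background on no corn oil array, drawn without an error. The other 2 probes of Ltbp2 lie at 2.42 and 2.22 and the 2 of Cilp at −2.35 and −2.07, whereas the probes of Col4a1, Fbn1, Tgfb2 and Fn1 lie on both sides of 0. The Ltbp2 probe at 2.22 was well above background on 1 corn oil array only.

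The matrix enzymes and inhibitors gave no call among 4 tested. Timp3, a matrix-bound inhibitor of metalloproteinases, was at 1.27, 1.16 and 1.25 with corn oil and 1.53, 1.57 and 1.34 with chlorothalonil. The groups did not overlap, and the difference was 0.25 ± 0.08 (SE). Timp2, another inhibitor, differed by 0.12 ± 0.10. Mmp2, a gelatinase, differed by −0.07 ± 0.21, and Mmp14, the membrane-bound protease that activates it, by 0.00 ± 0.11 with an interval from −0.28 to 0.28.

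The fibroblast and myofibroblast markers gave no call among 4. Acta2, smooth muscle actin, was at −0.86, −1.03 and −1.08 with corn oil and −1.18, −1.04 and −1.22 with chlorothalonil, a difference of −0.16 ± 0.09 (SE). Its interval, from −0.38 to 0.06, reflects the spread of arrays within each slide and holds no slide effect. A spike-in at −0.28 with corn oil was itself −0.22 lower on the chlorothalonil slide. The part of such a shift in the value of Acta2 was not tested. Tagln, transgelin, was at 0.26, 0.23 and −0.18 against −0.01, 0.40 and 0.17, a difference of 0.09 ± 0.16. Pdgfra, the PDGF receptor of fibroblasts, differed by 0.19 ± 0.18, with corn oil replicate 1 lowest, and by 0.00 without that array. Pdgfrb, the receptor of pericytes and fibroblasts, differed by 0.02 ± 0.08, with an interval from −0.17 to 0.21.

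In each group, replicate 1 was the lowest array for most of these genes. Corn oil replicate 1 was the lowest corn oil array for 19 of the 29 genes, where it was lowest for 30.6% of all features and for 66 of 154 other matrix genes. The genes included 4 of 5 collagens. Chlorothalonil replicate 1 was the lowest of its group for 16 of the 29, against 30.3% of all features and 66 of the 154 other matrix genes. Corn oil replicate 2 was the highest for 16 of the 29, against 33.9% of all features. Across the 29 genes the median deviation from the group mean was −0.17 in corn oil replicate 1, 0.12 in replicate 2 and 0.02 in replicate 3. Over all features it was 0.01, 0.01 and −0.02. Across the 29 genes it was −0.08, 0.07 and 0.06 in chlorothalonil replicates 1, 2 and 3. Ccn2, Fn1, Acta2, Ltbp4, Timp3 and Tagln went the other way and were highest in corn oil replicate 1. The median SD of the 29 genes was 0.26 with corn oil and 0.15 with chlorothalonil, against 0.12 and 0.11 over all features. Without corn oil replicate 1 the median difference of the 29 genes went from 0.10 to 0.01, and the difference of 21 of them became smaller or more negative. These arrays share 1 slide, as do the chlorothalonil arrays on theirs, and what sets the low arrays apart was not tested.

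**Figure D4:**
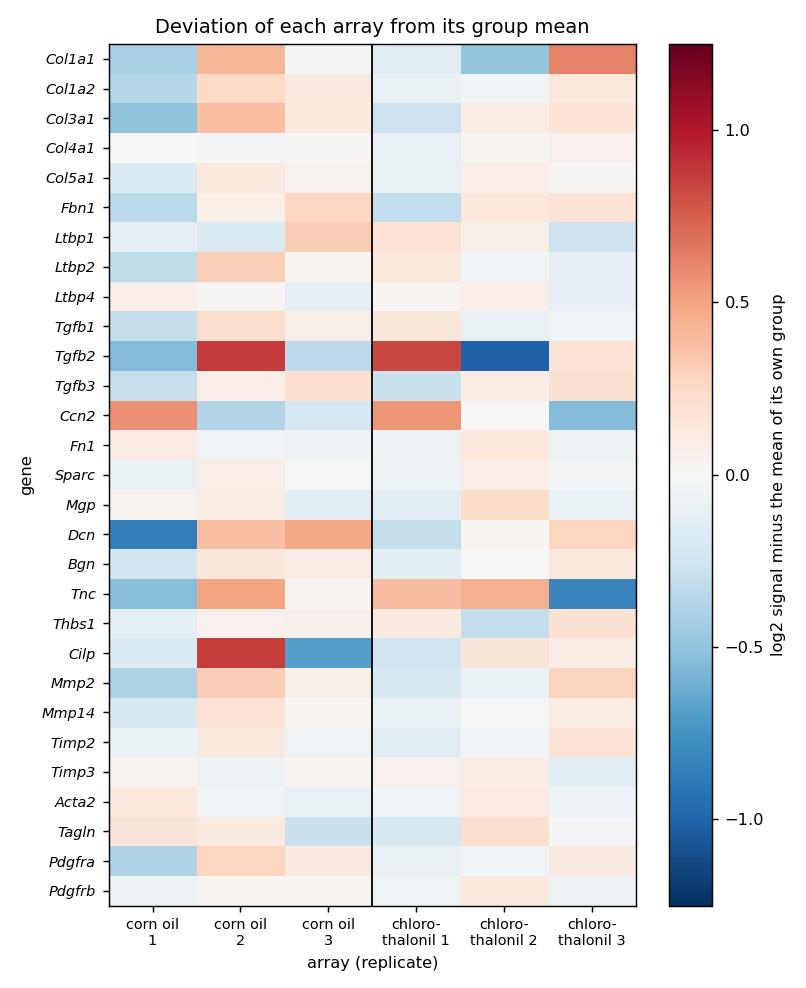
Log2 signal of each array (x axis) minus the mean of its own group, as colour, for the 29 genes (y axis). Corn oil replicate 1 is the lowest of its group for 19 genes and chlorothalonil replicate 1 for 16, and the colours are strongest for Tgfb2, Cilp, Dcn and Tnc.

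Markers of other cell types were measured on the same arrays. Their summed level, on the linear scale relative to the 75th percentile, was 31.6 to 36.4 with corn oil and 29.1 to 35.4 with chlorothalonil for 6 of 7 listed endothelial genes. It was 31.8 to 38.9 against 34.3 to 43.1 for 6 of 6 podocyte genes, and 21.2 to 34.8 against 27.1 to 29.2 for 7 of 8 macrophage genes. For 4 of 6 smooth muscle and juxtaglomerular genes it was 40.9 to 47.7 against 40.4 to 51.7, and for 4 of 7 lymphocyte genes 0.417 to 0.621 against 0.415 to 0.639. For all 10 proximal tubule genes it was 2494 to 2705 against 2726 to 3008, so that the groups did not overlap. Gene by gene that list was mixed, with 7 log2 differences above 0, 3 below and a median of 0.07. The groups of 3 genes lay apart with chlorothalonil higher, and those of Slc5a2, at −0.35 ± 0.10 (SE), with chlorothalonil lower. The share of the proximal tubule signal in the matrix results was not tested. In these lists only Actg2 was called. The macrophage gene Cd163 was above background on no array. Of the 7 tested macrophage genes, 3 log2 differences were above 0 and 4 below, with a median of −0.05. The groups of Adgre1, at −0.47 ± 0.12 (SE), lay apart with chlorothalonil lower, which the summed level does not show.

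Another 223 matrix genes in 9 lists, none of them a member, were set beside the 29. They were listed by known role, after earlier results of these data had been seen. Of the 223, 154 were tested, with 1 called higher and 3 lower, beside 1.44% higher and 0.696% lower of features with a symbol. Before adjustment, 22 of the 154 had a limma p under 0.05. The same count was 5748 of all 29115 features and 2215 of the 11926 with a symbol. The median log2 difference over the 154 was 0.05. The groups did not overlap for 33 of them, beside 27.7% of all features.

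Of the 4 calls, 2 were enzymes that process or crosslink collagen, among 19 tested. Tgm2, transglutaminase 2, which crosslinks matrix proteins, was at 6.25, 5.83 and 6.01 with corn oil and 5.20, 5.35 and 5.05 with chlorothalonil. All treated arrays lay below all controls, and the gene fell by 0.83 on the log2 scale, or 1.78-fold, with an SE of 0.13 and an adjusted p of 0.0393 in limma. Its other probe differed by −0.86. Plod1, lysyl hydroxylase 1, which prepares collagen lysines for crosslinking, was at 2.26, 2.22 and 2.05 against 1.59, 1.70 and 1.71. It was lower on every treated array, with a difference of −0.51 ± 0.08 (SE), an adjusted limma p of 0.0384 and −0.53 on its other probe.

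Among 13 elastic fibre and microfibril genes, Efemp2, fibulin 4, needed for elastic fibres, was called. It was at 2.5, 2.79 and 2.68 with corn oil and 3.21, 3.10 and 3.19 with chlorothalonil, higher on every treated array. The difference was 0.51 ± 0.09 (SE), with an adjusted limma p of 0.0497, close to the threshold, and its other probe gave 0.50. Among 20 other fibroblast, myofibroblast and mural cell genes, Actg2, a smooth muscle actin, was at 2.30, 2.23 and 2.18 against 1.61, 1.68 and 1.65. All treated arrays were lower, by −0.59 ± 0.06 with an adjusted limma p of 0.0135, but its 2 other probes were at 0.06 and −0.06. Actg2 was not called when its probes were averaged, at −0.20.

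None of these 4 calls held with every array in turn left out. With arrays scaled to their median, Tgm2 and Plod1 were not called, at adjusted limma p of 0.0535 and 0.0703. Efemp2 was not called after quantile normalization or with each probe as its own feature, at 0.0512 and 0.0533. Without corn oil replicate 1, Actg2 was called, at −0.56. Without corn oil replicate 2 the single call was Col11a1, a minor fibrillar collagen named after its value was seen. Without any of the other 4 arrays none of the listed genes was called in limma, with 19 to 24 under an unadjusted p of 0.05 in those fits. The differences moved little. With 1 array left out they were −0.93 to −0.72 for Tgm2, −0.57 to −0.47 for Plod1, 0.43 to 0.57 for Efemp2 and −0.62 to −0.56 for Actg2.

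**Figure D5:**
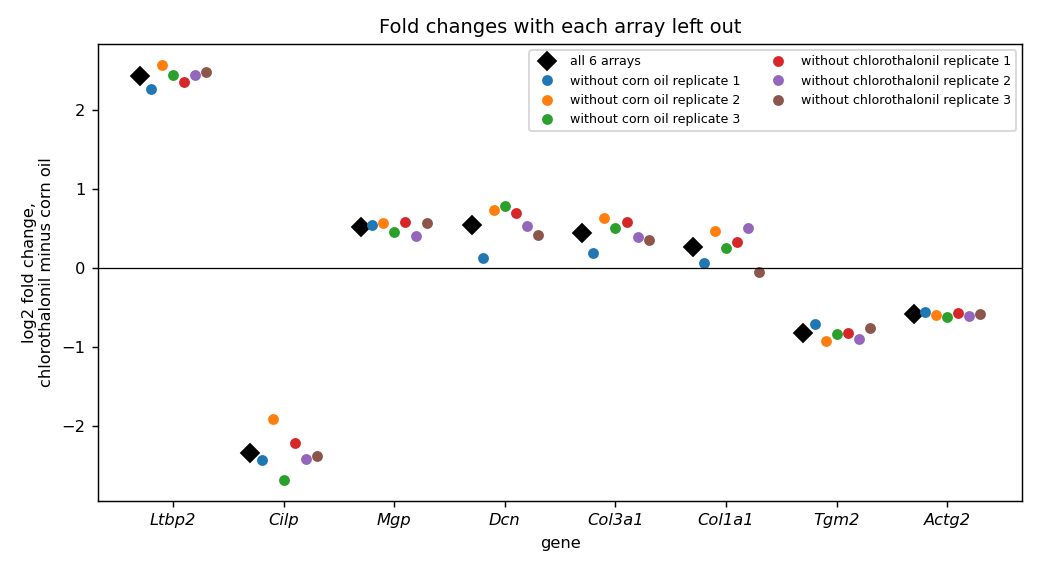
Log2 difference (y axis) with all 6 arrays (diamond) and with each array left out in turn (circles) for 8 genes (x axis). Ltbp2 stays between 2.27 and 2.57 and Cilp between −2.69 and −1.91, whereas Dcn and Col3a1 drop to 0.12 and 0.19 without corn oil replicate 1.

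The other 6 lists had no call in limma. Among 15 other collagens, 4 had an unadjusted p under 0.05, and the smallest was that of Col18a1, a basement membrane collagen, at 0.28 ± 0.08 (SE) with an adjusted limma p of 0.137. Among 14 basement membrane genes it was 2. Among 20 genes of TGF-beta signalling it was 3, with Fst, follistatin, an activin antagonist, at 0.41 ± 0.10 and an adjusted p of 0.0919. The probes of Fst ranged from 0.08 to 0.60.

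Among 19 proteoglycans and matricellular genes, 3 had an unadjusted limma p under 0.05. Spon2, a secreted spondin, had the smallest, at −0.49 ± 0.12 (SE) with an adjusted p of 0.0985, and 0.12 on its other probe. Among 20 matrix proteases and inhibitors it was 1, Timp4, at −0.47 ± 0.12 with an adjusted p of 0.107 and all 3 probes between −0.47 and −0.39. Among 14 matrix receptors it was 1, the integrin chain Itga6, at −0.39 ± 0.11 with an adjusted p of 0.149.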

How the data were processed

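Total RNA of renal cortex was hybridised to 6 Agilent 1-colour arrays, and the deposited intensity was extracted with Agilent Feature Extraction 10.7, per the submitters' processing notes. Per the file headers, the processed signal was corrected for background and for spatial trend on its own array. The authors' deposited value table is a linear ratio, the processed signal over 1 constant per array close to its 75th percentile, a scaling that no label states. It is not centred, with column medians from 0.105 to 0.112. Its direction is that of the signal.

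Here log2 processed signals were scaled to each array's 75th percentile. Outlier spots (0 to 9 per array) were left out, and no probe was saturated. Probes well above background on all 3 arrays of a group and measured on at least 2 per group were kept. Accessions matched 28206 of 61537 probes to 1 gene through RefSeq (GRCr8). The array headers name build rn4, so no array coordinates are given. The brightest probe stood for a gene. Groups were fitted with limma 3.58.1 in R 4.3.3, without covariates, after a check on simulated data. The number of arrays limits the precision.

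Members and lists were chosen with earlier results of these data known. Every member was named, with every array's value for called or non-overlapping genes, the fibrillar collagens, microfibril genes and TGF-beta ligands. From each other list up to 3 called genes were named, or the one with the smallest p, and any marker called. One gene that this rule names is not reported here. Ccn2, Dcn, Fn1, Col4a1, Acta2, Tagln and Postn were shown in full after their values were seen. Alternatives are in the closing section.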

Additional observations from a re-analysis of the deposited data

How the results depend on the processing

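The count of called features was 172 with no filter on dim probes and 112 to 388 with 1 array left out. That of called members was 1 with no filter and 1 to 2 with 1 array left out, and Ltbp2 was the one that stayed. That of the other matrix genes was 2 with scaling to the array median (Tgm2 and Plod1 lost), 2 with the mean of probes (Efemp2 and Actg2 lost), 3 with quantile normalization and 3 with separate probes (Efemp2 lost in both), 0 with no filter (limma, 20 under an unadjusted p of 0.05) and 0 to 1 with 1 array left out. With the replicate block, limma called 0 features (5271 under an unadjusted p of 0.05), 0 members and 0 other matrix genes. The deviations of same-numbered arrays from their group means correlated at 0.095, 0.018 and 0.051 over all features. Of the 6 arrays, 4 correlated best with their own number. Among the 29 members, replicate 1 was the lowest array for 19 with corn oil and for 16 with chlorothalonil. Called features numbered 803 to 1325 under quantile normalization, median scaling, normexp on the median spot signal, the deposited table, a filter on all 6 arrays, averaged or separate probes, a trended robust prior and outliers kept, and the 2 called members were Ltbp2 and Cilp in each. Ltbp2 ranged from 1.61, with normexp, to 2.57, and no called gene changed sign. A fit with slide as block was not possible, because each slide holds 1 group. Dim members such as Tnc and Tgfb2 are limited by signal close to background or by spread.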
